A study of Homo sapiens with 8 samples.

Results

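Cytosolic ribosomal protein genes were measured in RNA-seq libraries of SUIT2, an established human pancreatic ductal adenocarcinoma (PDA) cell line. A gene was taken as a member when its symbol, looked up from the NCBI gene number in the deposited count files, was RPS or RPL followed by a number and, where present, the letter A or X, or was RPLP0, RPLP1, RPLP2 or RPSA, and when it was protein coding. This gave 77 members among 25702 gene numbers, of which 31 are named as proteins of the small (40S) ribosomal subunit and 46 as proteins of the large (60S) subunit. The rule used names only and no measured value.

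The series asks what the homeobox transcription factor Engrailed-1 (EN1) does in metastatic PDA, and its SUIT2 libraries compared cells carrying short hairpin RNAs (shRNAs) against EN1 with cells carrying a scrambled shRNA. The 4 control libraries are titled shScr_1 to shScr_4 (scramble shRNA). The other 4 carry an EN1 shRNA and are titled shEn1_1.1, shEn1_1.2, shEn1_2.1 and shEn1_2.2, read here as 2 constructs with 2 libraries each. By the study's methods the EN1 hairpins were carried in a lentiviral vector with puromycin resistance, while the vector of the scrambled hairpin is not given in the sources used here. The labels give no genotype, no time after transduction and no statement that the libraries of a group came from separate cultures, so p-values here measure the spread between these libraries, which may be technical. All libraries come from 1 cell line.

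Ribosomal proteins assemble with ribosomal RNA in the nucleolus into the 40S subunit, which decodes mRNA, and the 60S subunit, which forms peptide bonds. Most ribosomal proteins are needed in about equal copy number, and their mRNAs are among the most abundant of a growing cell. Many of these mRNAs begin with a 5′ terminal oligopyrimidine (TOP) tract, a cytosine followed by a run of pyrimidines, through which mTOR signalling sets their translation by way of LARP1, and MYC is known to drive their transcription in tumour cells.

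To show this shared feature, 30-base windows around the annotated transcription start (10 bases before it, 20 from it onward) are printed for members that recur below. They are read 5′ to 3′ on the gene's strand from RefSeq, build GRCh38.p14, and capitals mark the unbroken run of C and T that begins at the start site with a C and holds at least 4 more letters. The first 6 belong to abundant members, the next 4 to members that departed from the rest of the set or were scarcely counted but hold the same kind of start, and the last 3 to members whose listed start holds none.
RPLP0, chr12:120201092-120201121, minus strand: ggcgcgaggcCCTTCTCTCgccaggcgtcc
RPLP1, chr15:69452808-69452837, plus strand: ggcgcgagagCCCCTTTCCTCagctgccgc
RPLP2, chr11:809957-809986, plus strand: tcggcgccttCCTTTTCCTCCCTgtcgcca
RPSA, chr3:39406710-39406739, plus strand: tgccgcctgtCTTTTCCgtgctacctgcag
RPS3, chr11:75399508-75399537, plus strand: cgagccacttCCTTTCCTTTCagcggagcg
RPS6, chr9:19380217-19380246, minus strand: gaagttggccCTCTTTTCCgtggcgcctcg
RPL18, chr19:48619159-48619188, minus strand: agcccgttctCTCTTTCCggacctggccga
RPL41, chr12:56116623-56116652, plus strand: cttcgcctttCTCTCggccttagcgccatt
RPS18, chr6:33272065-33272094, plus strand: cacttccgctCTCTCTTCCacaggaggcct
RPS19, chr19:41860245-41860274, plus strand: ccccgtcgttCCCTTTCCCCTggctggcag
RPL15, chr3:23917122-23917151, plus strand: aaggcattgtgggagtacagctctttcctt
RPS26, chr12:56041908-56041937, plus strand: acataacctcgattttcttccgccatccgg
RPS29, chr14:49598691-49598720, minus strand: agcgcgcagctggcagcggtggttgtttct

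The RefSeq promoter table matched 62 of the 77 members, some with several starts, giving 77 entries of 300 bases (250 before the start, 50 from it). A pyrimidine start as defined above was found in 46 of these entries (59.7%), 1 in each of 46 genes, against 4.07% of all 35116 promoter entries and 5.11% of the entries of genes tested in these libraries. It was found for 11 of the 12 matched genes of a list of other TOP mRNAs, and in 7.06% of entries for mitochondrial ribosomal proteins and 2.44% for proteasome subunits. The letters CCGGAAG, a core bound by ETS factors, were present on either strand in 33.8% of member entries. They were present in 10.3% of all entries and 16.5% of those of tested genes. For mitochondrial ribosomal proteins the share was 38.8%, and for proteasome subunits 29.3%. The letters TATAAA were present on either strand in 6.49% of member entries, 11.5% of all entries and 6.29% of those of tested genes. A match to such letters is a description of the window and shows no binding.

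Library totals ran from 33423590 to 37810604 counts, and no 2 libraries were duplicates. The study reports depletion of EN1 in SUIT2 by its EN1 shRNAs, with the mRNA measured by RT-qPCR. In these libraries EN1, the targeted gene, did not separate the labels. It measured 4.10, 4.50, 4.94 and 2.51 CPM (counts scaled to a common total by library size and TMM factor) in shScr_1 to shScr_4, 5.77 and 5.41 in shEn1_1.1 and shEn1_1.2, and 1.35 and 6.70 in shEn1_2.1 and shEn1_2.2 (log2 fold change 0.26, SE 0.43). Both groups are therefore called by their labels throughout. Over all tested genes, the library labelled shScr_4 and that labelled shEn1_2.1 stood apart from the other 6 and lay closest to each other (root mean square difference 0.395 on the log2 scale), and shScr_3 and shEn1_1.1 lay together on the next principal component. Results are given below with and without these 2 pairs. Epithelial markers (KRT8, KRT18, KRT19, EPCAM, CDH1) summed to between 11110 and 17630 CPM, and the endothelial, fibroblast and acinar lists summed to at most 0.676 CPM in any library. The 4 leukocyte markers summed to between 8.49 and 29.04 CPM in the shScr and between 8.28 and 35.6 CPM in the shEn1 libraries, with PTPRC and CD3E at 0 counts in all 8 and most of the sum on CD68, which encodes a lysosomal membrane protein.

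Members took 5.90%, 6.21%, 6.83% and 5.62% of all counts in shScr_1 to shScr_4, 6.61% and 5.43% in shEn1_1.1 and shEn1_1.2, and 5.41% and 6.22% in shEn1_2.1 and shEn1_2.2. Each share has a 95% Wilson interval about as narrow as that of shScr_3, 6.83% to 6.84%, which covers counting error only. The shares averaged 6.14% ± 0.522 (SD, n = 4) under shScr and 5.92% ± 0.597 (SD, n = 4) under shEn1, so the ranges overlapped and the spread within each label exceeded the difference between labels. The 2 libraries of the first EN1 construct lay farther apart (6.61% and 5.43%) than the label means did. In these bulk libraries a smaller share cannot be told apart from more RNA of other genes.

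**Figure D1:**
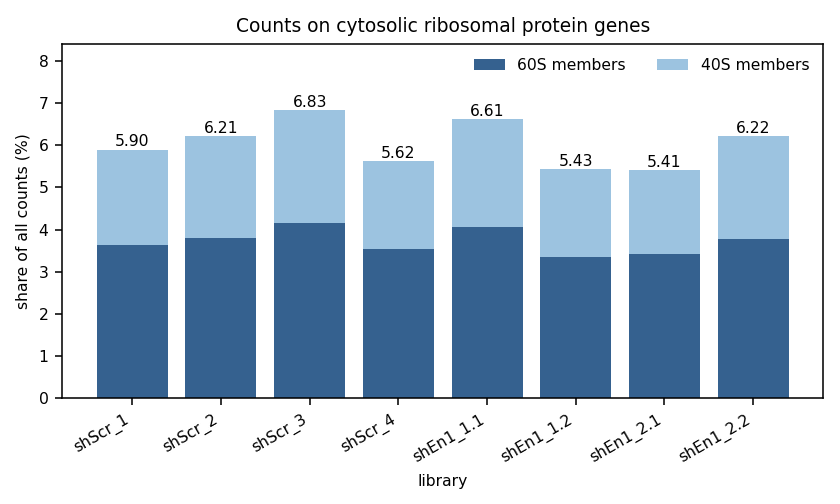
Share of all counts (percent, vertical axis from 0) that fell on 60S (dark) and 40S (light) members in each of the 8 libraries, with the summed share printed above each bar. The highest bars are shScr_3 (6.83%) and shEn1_1.1 (6.61%), and the lowest are shEn1_2.1 (5.41%) and shEn1_1.2 (5.43%), so high and low libraries occur under both labels.

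Counts on 60S members exceeded those on 40S members in every library, by a ratio of 1.61, 1.58, 1.55 and 1.72 in the shScr libraries, 1.60 and 1.61 in the shEn1_1 libraries, and 1.72 and 1.56 in the shEn1_2 libraries. The ratio was highest in shScr_4 and shEn1_2.1, the pair that also stood apart over all genes. The same 2 libraries had 40S shares of 2.07% and 1.99%, against 2.68% in shScr_3. In shEn1_1.2 the 40S share was also low, at 2.08%, with a ratio of 1.61.

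Nearly the whole set was highly expressed. On the TMM-scaled CPM scale, used throughout unless library size alone is named, 74 of the 77 members averaged at least 100 CPM over the 8 libraries, 20 averaged at least 1000, and those 74 were all among the 1000 most abundant genes by mean CPM. The median member averaged 643 CPM. The 5 with the most counts, a measure that favours longer mRNAs, were RPS3 (2561), RPL4 (2382), RPLP0 (2318), RPS2 (2302) and RPL8 (1687). All 77 passed the filter on low counts that left 14333 genes for testing. The members lie on 21 chromosomes, 12 of them on chromosome 19 and 4 on X.

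Because a longer mRNA yields more fragments, levels were also compared between genes after division by coding length, which ran from 75 bases (RPL41) to 1281 (RPL4), with a median of 456. Per kilobase of coding sequence, the median member reached 1482 CPM. The ribosomal stalk protein gene RPLP1 reached 3533 CPM per kilobase and RPS3 reached 3514, while RPL18 reached 666.1. The value for RPL41, 16044 CPM per kilobase, rests on the shortest coding sequence of the set within a transcript of 676 bases, most of which is not coding. FAU, which encodes a 40S protein fused to a ubiquitin-like protein and which the naming rule leaves out, averaged 304 CPM.

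The acidic stalk of the 60S subunit, which recruits elongation factors, is built from RPLP0, RPLP1 and RPLP2. RPLP0 (gene 6175; GRCh37 chr12:120634502-120639038, minus strand, 8 exons) measured 2380.0, 2456, 2585 and 2033 CPM in shScr_1 to shScr_4, 2771 and 2104 in shEn1_1.1 and shEn1_1.2, and 1939 and 2279 in shEn1_2.1 and shEn1_2.2. RPLP1 measured 1165, 1164, 1589.9 and 1123 CPM in the shScr libraries, 1279.5 and 1074 in the shEn1_1 libraries, and 967 and 1303 in the shEn1_2 libraries. RPLP2 measured 586, 612, 813 and 633 CPM in the shScr libraries, 688 and 597 in the shEn1_1 libraries, and 512 and 744 in the shEn1_2 libraries. All 3 were lowest in shEn1_2.1, and RPLP0 was highest in shEn1_1.1 while RPLP1 and RPLP2 were highest in shScr_3. Their label means overlapped within 1 SD: RPLP0 averaged 2364 ± 236 CPM under shScr and 2273 ± 359.6 under shEn1 (SD, n = 4 each), with a log2 fold change of -0.06 (SE 0.14).

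RPL5 and RPL11 form a particle with 5S ribosomal RNA and, outside the ribosome, bind and restrain MDM2. RPL5 measured 1136, 1154, 1008 and 842 CPM in the shScr libraries, 1268 and 938 in the shEn1_1 libraries, and 875 and 1062 in the shEn1_2 libraries. RPL11 measured 496, 479, 503 and 412 CPM in the shScr libraries, 594 and 405 in the shEn1_1 libraries, and 377 and 491 in the shEn1_2 libraries. Both were highest in shEn1_1.1, and low in shScr_4, shEn1_1.2 and shEn1_2.1. RPL23, another 60S protein known to bind MDM2, measured 572, 597, 564 and 431 CPM in the shScr libraries, 714 and 496 in the shEn1_1 libraries, and 447 and 534 in the shEn1_2 libraries. Its highest library was again shEn1_1.1 and its lowest was shScr_4.

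RPL4, RPL17 and RPL39 line the tunnel through which the nascent chain leaves the 60S subunit. RPL4 (gene 6124; GRCh37 chr15:66790353-66816870, minus strand, 10 exons) measured 2641, 2511, 2339 and 2116 CPM in the shScr libraries, 2755 and 2297 in the shEn1_1 libraries, and 2134 and 2262 in the shEn1_2 libraries. RPL17 measured 437, 455, 414 and 337 CPM in the shScr libraries, 443 and 348 in the shEn1_1 libraries, and 353 and 422 in the shEn1_2 libraries. RPL39 measured 286, 332, 423 and 249.6 CPM in the shScr libraries, 409 and 242 in the shEn1_1 libraries, and 251 and 332 in the shEn1_2 libraries. The 3 shared low values in shScr_4 and shEn1_2.1, but shScr_3 was the highest library for RPL39 and lay below the shScr mean for RPL4. RPL39 spanned a wider range, with an SD of 0.32 log2 units over the 8 libraries against 0.14 for RPL4.

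RPL10, which joins the 60S subunit late near its catalytic centre, measured 973, 898, 1259 and 876 CPM in the shScr libraries, 1188 and 965 in the shEn1_1 libraries, and 865 and 974 in the shEn1_2 libraries. RPL24, a late-joining protein that forms a bridge between the subunits, measured 565, 595, 633 and 433 CPM in the shScr libraries, 685 and 504 in the shEn1_1 libraries, and 434 and 597 in the shEn1_2 libraries. RPL3 and RPL8, both close to the peptidyl transferase centre, differed in their profiles. RPL3 measured 1471, 1405, 1329 and 1256 CPM in the shScr libraries, 1333 and 1315 in the shEn1_1 libraries, and 1194 and 1429.8 in the shEn1_2 libraries. RPL8 measured 1657, 1697, 1949.5 and 1606 CPM in the shScr libraries, 1511 and 1664 in the shEn1_1 libraries, and 1391 and 2018 in the shEn1_2 libraries. RPL3 was among the steadiest members (SD 0.10 log2 units), with its highest value in shScr_1, while RPL8 was highest in shEn1_2.2.

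On the 40S subunit, RPS2 and RPS3 surround the entry of the mRNA channel and RPS23 lies at the decoding centre. RPS2 measured 2108, 2289, 2843 and 2079 CPM in the shScr libraries, 2152 and 2349.6 in the shEn1_1 libraries, and 1807 and 2783 in the shEn1_2 libraries. RPS3 (gene 6188; GRCh37 chr11:75110559-75133324, plus strand, 7 exons) measured 2810.4, 2759, 2907 and 1919 CPM in the shScr libraries, 2615 and 2577 in the shEn1_1 libraries, and 1788 and 3115 in the shEn1_2 libraries. RPS23 measured 840.2, 906, 971 and 818 CPM in the shScr libraries, 939 and 764 in the shEn1_1 libraries, and 734 and 898 in the shEn1_2 libraries. RPS3, the member with the most counts, was far lower in shScr_4 and shEn1_2.1 than in the other 6 libraries, which lay at 2577 CPM or above. RPS23 varied less and was lowest in shEn1_2.1 and shEn1_1.2.

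RPS6, the 40S protein phosphorylated by S6 kinases downstream of mTOR, measured 1322, 1317, 1344 and 1017 CPM in the shScr libraries, 1347 and 1142 in the shEn1_1 libraries, and 989 and 1278 in the shEn1_2 libraries. RPSA, a 40S protein also known as the laminin receptor precursor, measured 1392, 1497, 1498 and 1105 CPM in the shScr libraries, 1658 and 1260.5 in the shEn1_1 libraries, and 1074 and 1289 in the shEn1_2 libraries. RPS27A, made as a fusion to ubiquitin, measured 896, 1014, 936 and 678 CPM in the shScr libraries, 1049 and 765 in the shEn1_1 libraries, and 697 and 893 in the shEn1_2 libraries. In each of these 3 genes the lowest values were those of shScr_4 and shEn1_2.1, and shEn1_1.1 was the highest library.

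**Figure D2:**
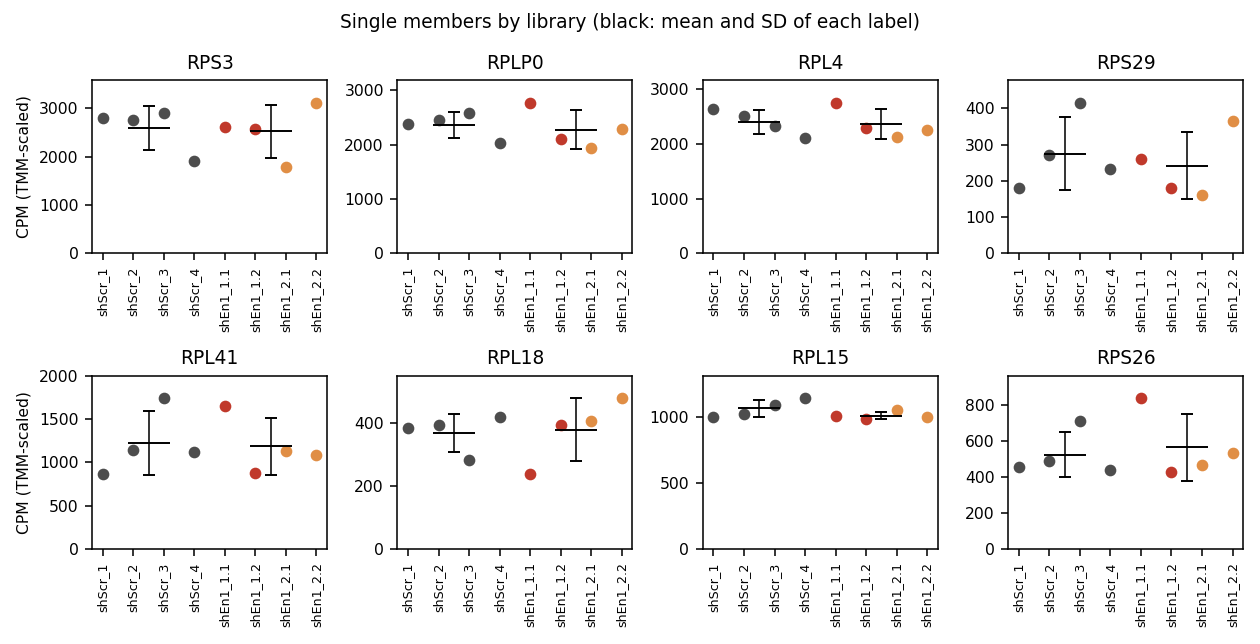
TMM-scaled CPM (vertical axes from 0) of 8 members in each library, grey for shScr, red for shEn1_1 and orange for shEn1_2, with the mean and SD of each label (n = 4) in black. RPS3, RPLP0 and RPL4 dip in shScr_4 and shEn1_2.1, RPS29 and RPL41 peak in shScr_3, RPL18 is lowest in shEn1_1.1, RPL15 is nearly flat, and RPS26 stands highest in shEn1_1.1 (835 CPM) and shScr_3 (709 CPM).

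RPS18 and RPS19 were counted at a small fraction of the level of most members. RPS18 (gene 6222; GRCh37 chr6:33239852-33244288) received only 15, 20, 21 and 19 reads in the shScr libraries, 21 and 20 in the shEn1_1 libraries, and 6 and 10 in the shEn1_2 libraries, an average of 0.467 CPM. RPS19 (gene 6223; GRCh37 chr19:42364325-42376993), the member most often mutated in Diamond-Blackfan anaemia, measured 9.97, 10.5, 16.4 and 9.91 CPM in the shScr libraries, 11.99 and 8.27 in the shEn1_1 libraries, and 9.96 and 11.5 in the shEn1_2 libraries. Reads on RPS19 were highest in shScr_3, and the labels overlapped. Per kilobase of coding sequence they reached 1.02 CPM (RPS18) and 25.4 CPM (RPS19), where RPL18 reached 666.1. Among the low members by counts were also RPS28, at a mean of 204 CPM, and RPL38, at 232. RPS28 measured 184, 193, 244 and 189 CPM in the shScr libraries, 184 and 203 in the shEn1_1 libraries, and 177 and 256 in the shEn1_2 libraries. RPL38 measured 191, 221, 319 and 206 CPM in the shScr libraries, 257 and 195 in the shEn1_1 libraries, and 177 and 292 in the shEn1_2 libraries.

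Ribosomal protein genes have many processed copies in the genome, and how reads that fit several places were counted is not given in the sources used here, so the levels of single members, and of RPS18 and RPS19 above all, are uncertain. The 30 ribosomal protein pseudogenes listed in the count files together held between 0.012% and 0.0181% of counts. The part of such copies in the low values was not tested.

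To describe how uniformly the members moved, each gene's log2 CPM was set against its own mean over the 8 libraries. The median deviation of the 77 members was 0.03, 0.09, 0.18 and -0.18 in shScr_1 to shScr_4, 0.22 and -0.13 in shEn1_1.1 and shEn1_1.2, and -0.25 and 0.07 in shEn1_2.1 and shEn1_2.2. Members above their own mean numbered 45, 56, 70 and 5 of 77 in the shScr libraries, 67 and 8 in the shEn1_1 libraries, and 3 and 58 in the shEn1_2 libraries. The set thus stood high in shScr_3 and shEn1_1.1 and low in shScr_4, shEn1_1.2 and shEn1_2.1, and each label and each construct held libraries on both sides of the mean. Low medians in shScr_4 and shEn1_2.1 were not confined to members. There, 848 other genes in the CPM range of members of at least 100 CPM had -0.10 and -0.11. The 76 tested mitochondrial ribosomal protein genes had -0.09 and -0.15. In shScr_3 and shEn1_1.1 the 848 genes had 0.01 and 0.03, and the 76 had 0.06 in both. The median of all genes tested lay between 0.00 and 0.02 in every library, as TMM scaling centres most genes near 0. On library size alone it ran from -0.04 (shScr_1) to 0.10 (shEn1_2.1), with 0.09 in shScr_4. On that scale the 848 genes had medians of -0.02 in shScr_4 and -0.01 in shEn1_2.1, and the members had -0.09 and -0.15. Like the members, CD68 was lowest in shScr_4 (8.38 CPM) and shEn1_2.1 (7.75 CPM) and highest in shEn1_1.1 (34.6 CPM) and shScr_3 (28.1 CPM), with PTPRC at 0 in all 8. The part of CD68 in the members' movement was not tested.

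From the highest to the lowest library the member medians spanned 0.46 log2 units, or 1.38-fold. Of the 77 members, 74 were higher in shEn1_1.1 than in shEn1_2.1. Both libraries were picked by the members' own medians, so a lopsided count between them was partly built in. Between the extreme libraries of their own set, 17 of 18 other TOP genes were higher in the higher library. The same held for 69 of 76 mitochondrial ribosomal protein genes and 7172 of 14333 genes tested. With CPM scaled on library size alone the span was 0.34 (1.27-fold), the sign of shScr_1 turned to -0.02, and the lowest library became shEn1_1.2. Without shScr_4 and shEn1_2.1 the span was 0.34 (1.26-fold), without shScr_3 and shEn1_1.1 it was 0.33 (1.26-fold), and without all 4 it was 0.22 (1.16-fold).

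**Figure D3:**
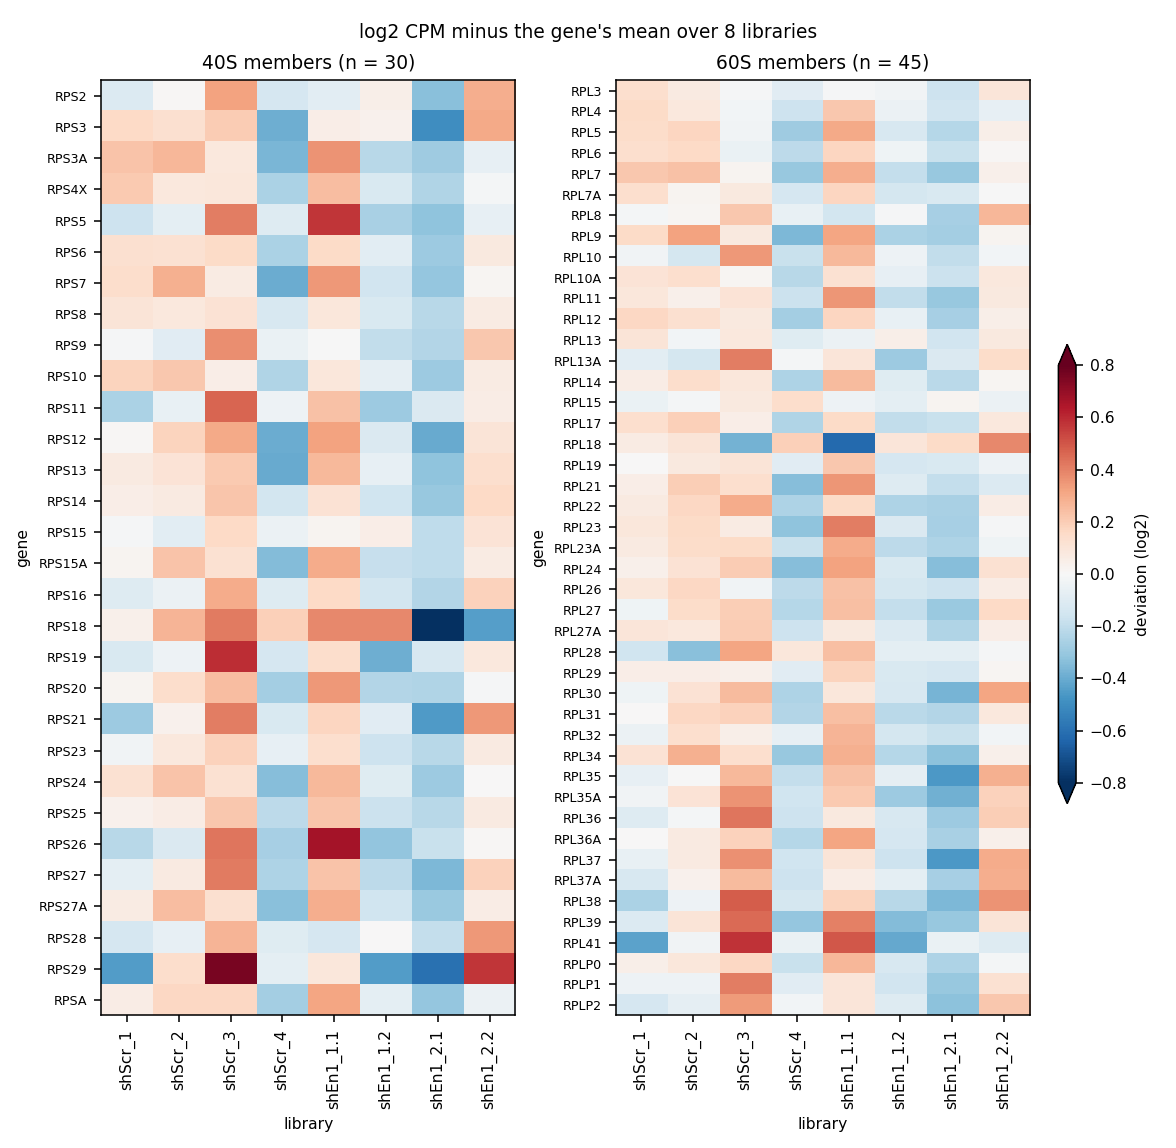
Deviation of 75 of the 77 members (rows, 30 of the 40S and 45 of the 60S subunit) from their own mean log2 CPM in each library (columns), red above and blue below the mean, with the colour scale in log2 units and clipped at 0.8. Columns shScr_4, shEn1_1.2 and shEn1_2.1 are mostly blue in both panels and shScr_3 and shEn1_1.1 mostly red, with RPS18 and RPL18 as the clearest exceptions.

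The single movement shared by all members, their mean deviation in each library, held 49.7% of the squared deviations of the 77 members, and 58.4% of those of the 74 members of at least 100 CPM. The share was 46.8% within the 40S and 54.6% within the 60S members. The same quantity was 53.5% for 18 other genes with TOP mRNAs, 25.5% for 76 mitochondrial ribosomal protein genes, 8.85% for 35 proteasome subunit genes, 10.2% for 848 other genes in the level range of the abundant members, and 0.33% for all 14333 genes tested. A few very variable genes can lower such a share. The largest SD of log2 CPM was 0.93 among proteasome genes and 1.47 among the 848, against 0.58 among members. No comparison set was recomputed without its most variable genes. On library size alone the members' share was 38.6%, that of mitochondrial ribosomal proteins 8.10% and that of all genes tested 2.37%. Without both pairs of libraries the members' share was 38.01%. It was then 34.4% for the other TOP genes, 10.7% for mitochondrial ribosomal protein genes and 25.8% for proteasome genes, so the members stood less far from proteasome genes than with all 8 libraries. Genes of a set are not replicates, so these shares carry no test.

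The members' spread was not large for single genes. The median SD of log2 CPM over the 8 libraries was 0.21 for members, 0.26 for all genes tested and 0.18 for the other genes in the same level range. The highest library divided by the lowest gave a median of 1.52-fold over members, from 1.16-fold for RPL15 to 3.95-fold for RPS18. The highest library was shEn1_1.1 for 35 of 77 members and shScr_3 for 27. The lowest was shEn1_2.1 for 45, shScr_4 for 20 and shEn1_1.2 for 9. Over all 14333 genes tested, shEn1_1.1 was highest for 13.95% and shScr_3 for 14.6%. For these genes shEn1_2.1 was lowest for 16.3%, shScr_4 for 14.8% and shEn1_1.2 for 9.52%. Among the 18 other TOP genes, shEn1_1.1 was highest for 11 and shScr_3 for 1. There the lowest was shScr_4 for 10, shEn1_2.1 for 5 and shEn1_1.2 for 1.

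Of the 77 members, 25 lay on the same side of their mean as the shared movement in 8 of 8 libraries, 24 in 7, and 63 in at least 6. The shared movement is the mean of these same members, so part of this agreement was built in. It was not counted for other genes. In shScr_1 the shared movement was only 0.0075, so the side taken there means little. RPS25 tracked the shared movement most closely, with an SD of 0.03 log2 units about it. RPS25, a 40S protein, measured 719, 731, 817 and 607 CPM in the shScr libraries, 819 and 625 in the shEn1_1 libraries, and 604 and 740.0 in the shEn1_2 libraries. RPS14, RPS23, RPL31 and RPLP0 followed, each with an SD of 0.05.

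**Figure D4:**
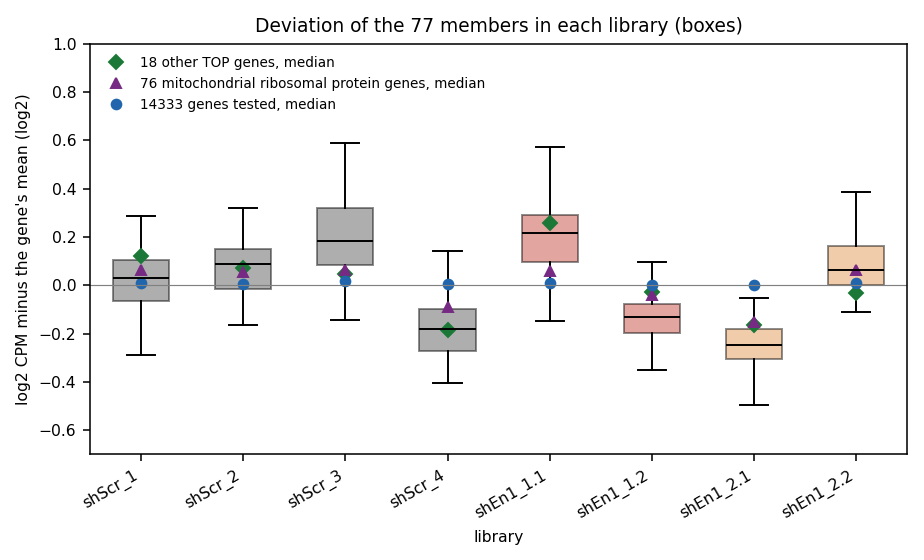
Deviation from each gene's own mean (log2 units, vertical axis) for the 77 members in each library, as boxes (median, quartiles, whiskers to 1.5 times the interquartile range, points beyond them not drawn), with the medians of 18 other TOP genes (diamonds), 76 mitochondrial ribosomal protein genes (triangles) and all 14333 tested genes (circles). Member medians run from -0.25 in shEn1_2.1 to 0.22 in shEn1_1.1, while the circles stay between 0.00 and 0.02, as TMM scaling centres most genes near 0.

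Genes for other TOP mRNAs, which encode translation factors and related proteins, had medians of 0.12, 0.07, 0.05 and -0.19 in the shScr libraries, 0.26 and -0.03 in the shEn1_1 libraries, and -0.16 and -0.03 in the shEn1_2 libraries. They were high in shEn1_1.1 and low in shScr_4 and shEn1_2.1 as the members were, but lay near their mean in shScr_3. EEF1A1, which encodes the main elongation factor that brings aminoacyl-tRNA to the ribosome, measured 8503, 8306, 6689 and 5604 CPM in the shScr libraries, 8712 and 6963 in the shEn1_1 libraries, and 6053 and 6453 in the shEn1_2 libraries. RPL5 (above), RPL6 and RPL7, all of the 60S subunit, had a profile of this kind. RPL6 measured 1245, 1263, 1093 and 979 CPM in the shScr libraries, 1279 and 1105 in the shEn1_1 libraries, and 1003 and 1141 in the shEn1_2 libraries. RPL7 measured 1158, 1173, 1012 and 808 CPM in the shScr libraries, 1218 and 875 in the shEn1_1 libraries, and 808 and 1024 in the shEn1_2 libraries. Neither peaked in shScr_3.

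Transcript length moved with part of the pattern. The 497 other tested genes with annotated transcripts shorter than the members' median of 785 bases had median deviations of -0.09, -0.0047, 0.22 and 0.02 in the shScr libraries, 0.08 and -0.10 in the shEn1_1 libraries, and -0.10 and 0.10 in the shEn1_2 libraries. They were thus high in shScr_3 but not low in shScr_4. Members with transcripts below that length had medians of 0.21 in shScr_3, -0.22 in shScr_4 and -0.27 in shEn1_2.1, and the longer members had 0.17, -0.17 and -0.24. The part of transcript length in the members' movement was not tested.

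A few members departed from the shared movement. RPL18, a 60S protein gene (gene 6141; GRCh37 chr19:49118585-49122441, minus strand, 7 exons), measured 385, 395, 282 and 420.3 CPM in the shScr libraries, 239 and 394 in the shEn1_1 libraries, and 408 and 481 in the shEn1_2 libraries. It was lowest in shEn1_1.1 and shScr_3, the 2 libraries in which the set was highest, and its SD about the shared movement was 0.45 log2 units. RPS18 also departed (0.51), on 6 to 21 reads.

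RPS29, a small zinc-binding protein of the 40S head, measured 179.7, 270.4, 415 and 232 CPM in the shScr libraries, 261 and 180.1 in the shEn1_1 libraries, and 162 and 365 in the shEn1_2 libraries. RPL41, the smallest ribosomal protein, measured 868, 1146, 1743 and 1125 CPM in the shScr libraries, 1651 and 880.0 in the shEn1_1 libraries, and 1127 and 1086 in the shEn1_2 libraries. RPS26, which lies at the exit of the mRNA channel, measured 452, 487, 709 and 439 CPM in the shScr libraries, 835 and 423 in the shEn1_1 libraries, and 465 and 531 in the shEn1_2 libraries. These 3 lay further above their own mean than the set did, RPS29 in shScr_3 and the other 2 in both shScr_3 and shEn1_1.1. RPS29 also reached 365 CPM in shEn1_2.2, where RPL41 and RPS26 did not stand high.

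At the other end, RPL15 (60S), measured 999.7, 1026, 1096 and 1145 CPM in the shScr libraries, 1009 and 984 in the shEn1_1 libraries, and 1053 and 1005 in the shEn1_2 libraries. Its SD of 0.08 log2 units placed it in the lowest 1.11% of tested genes, and its highest library was shScr_4, where 72 of 77 members were below their mean. RPL13, RPL29 and RPS15 were also steady. RPL13 measured 1618, 1482, 1599.5 and 1409.6 CPM in the shScr libraries, 1461 and 1556 in the shEn1_1 libraries, and 1356 and 1593 in the shEn1_2 libraries. RPL29 measured 1079.6, 1082, 1072 and 978 CPM in the shScr libraries, 1178 and 957 in the shEn1_1 libraries, and 950.2 and 1054 in the shEn1_2 libraries. RPS15 measured 529.5, 504, 596 and 516 CPM in the shScr libraries, 541 and 552 in the shEn1_1 libraries, and 464 and 574 in the shEn1_2 libraries. All 3 were nonetheless lowest in shEn1_2.1.

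Between the labels, no member passed the test. With edgeR's quasi-likelihood test and Benjamini-Hochberg adjustment over 14333 genes, 0 of 77 members passed an adjusted p of 0.05, and 0% of all tested genes did. At an unadjusted p below 0.05 there were 0 members, against 44 tested genes (0.307%), and no member had CPM values that did not overlap between labels, against 60 tested genes (0.419%). DESeq2 and limma-voom also called 0 members, and DESeq2 called 2 genes in all. The smallest unadjusted p among members was 0.338, for RPL22.

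Log2 fold changes (shEn1 minus shScr) were -0.36 (SE 0.51) for RPS18 and 0.11 (SE 0.23) for RPS26, and for 76 of 77 members the change was smaller than its own SE. The members' median was -0.05, beside 0.00 for all genes tested, and 67 members were below 0, where 51.1% of tested genes were. Since the members move together from library to library, this count follows single libraries: without shEn1_2.1 the median was 0.02 with 49 members above 0, without shScr_3 it was 0.01 with 40 above 0, and without shEn1_1.1 it was -0.13 with 4 above 0. The median SE of a member was 0.15, so changes of that size were not detectable with these libraries, and the detection limit lay well above it. RPL22, at -0.15 (SE 0.15), had an unadjusted p of 0.338 (edgeR).

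**Figure D5:**
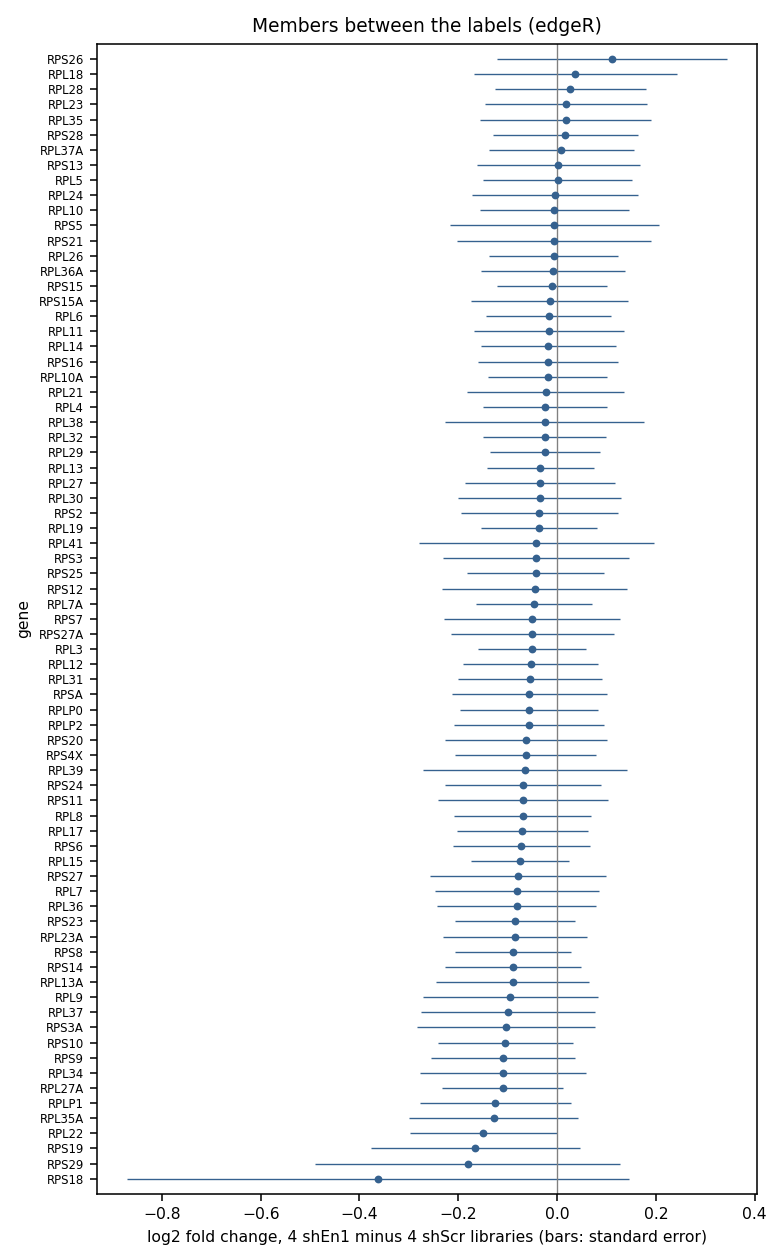
Log2 fold change of 75 of the 77 members between the 4 shEn1 and the 4 shScr libraries (horizontal axis, edgeR), ordered by value, with standard errors as bars and 0 as a grey line. The points lie between -0.36 (RPS18) and 0.11 (RPS26), and the bars of 74 of the 75 members drawn reach 0.

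Of the members at either end of the order of fitted changes, several have been described. RPL28, a 60S protein, measured 443, 393, 615 and 525 CPM in the shScr libraries, 584 and 469 in the shEn1_1 libraries, and 469 and 492 in the shEn1_2 libraries. RPL22, a 60S protein that also binds RNA outside the ribosome, measured 400.2, 427, 467 and 320.2 CPM in the shScr libraries, 423 and 319.7 in the shEn1_1 libraries, and 318 and 396 in the shEn1_2 libraries. RPL35A, a 60S protein mutated in some patients with Diamond-Blackfan anaemia, measured 524, 575, 686 and 479 CPM in the shScr libraries, 618 and 436 in the shEn1_1 libraries, and 409.5 and 608 in the shEn1_2 libraries. Their log2 fold changes were 0.03 (SE 0.15), -0.15 (SE 0.15) and -0.13 (SE 0.17), and their ranges overlapped between the labels.

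By construct, in 1 fit with 3 groups, members had a median log2 fold change of 0.01 for shEn1_1 against shScr, with 40 above 0 and 37 below, and of -0.11 for shEn1_2 against shScr, with 6 above 0 and 71 below. The median difference shEn1_2 minus shEn1_1 was -0.10. No member passed in any of the 3 comparisons (0% of all genes in each), and 0 members reached an unadjusted p below 0.05, where 94 (0.656%), 43 (0.3%) and 153 (1.07%) of tested genes did. With DESeq2, 1 member did so between the constructs, where 241 (1.68%) of tested genes did. The shEn1_2 libraries lay on opposite sides of the members' mean (medians -0.25 and 0.07), as did the shEn1_1 libraries (0.22 and -0.13).

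With both pairs of libraries left out, leaving shScr_1 and shScr_2 against shEn1_1.2 and shEn1_2.2, 12 members reached an unadjusted p below 0.05 (edgeR), where 10.6% of 14273 tested genes did, and 0 passed the adjusted threshold. RPS3A, a 40S protein, had a log2 fold change of -0.39 (SE 0.10, adjusted p = 0.401). RPS28 (0.28, SE 0.12) was above 0. Of the 12, 10 were below 0. The median over the 77 members was then -0.09, with 26 above 0.

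The naming rule leaves out 10 paralogs and fusion genes listed beside it, of which 8 passed the filter. RPL10L had no counts in any library and RPL3L, the muscle paralog of RPL3, had at most 2 in a library. RPL22L1, the paralog of RPL22, measured 30.3, 32.6, 23.2 and 17.4 CPM in the shScr libraries, 31.5 and 21.9 in the shEn1_1 libraries, and 13.4 and 31.5 in the shEn1_2 libraries, low in shScr_4 and shEn1_2.1 like the members. RPL39L, the paralog of RPL39, ran from 21.5 to 31.1 CPM and was lowest in shEn1_1.1, where RPL39 was high. None of the 8 passed the test between the labels.

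Members with a pyrimidine start in the RefSeq table (46) had a median log2 fold change of -0.05 and a median SD over libraries of 0.22, and the 16 matched members without one had -0.04 and 0.16. Their median deviations in shScr_4 were -0.18 and -0.19, and in shEn1_2.1 -0.28 and -0.18. In shScr_3 they were 0.21 and 0.08. The split rests on annotated starts in this table and was not tested.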

How the data were processed

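Per the study's methods, RNA was isolated with TRIzol, treated with DNase and purified on PureLink mini kit columns, and per the labels it was sequenced by a service provider. By the same methods, the authors aligned reads to hg19 with HISAT2 and counted them per gene with featureCounts; the labels' processing notes name the same tools but the build mm9. The annotation, strand setting and handling of reads with several placements are not given in the sources used here. The deposited values were raw counts per NCBI gene number, of which 23696 of 25702 matched a symbol. Rules, lists and members were chosen with earlier results of these data known.

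Counts were filtered with filterByExpr (minimum 10), scaled by TMM and fitted with edgeR 4.0.16 (robust quasi-likelihood, R 4.3.3) without covariates, with Benjamini-Hochberg adjustment at 0.05. SE is the absolute log2 fold change over the square root of F. DESeq2 1.42.0 and limma 3.58.1 (voom) were alternatives. Log2 CPM used a prior count of 2. Construct comparisons used 1 fit with 3 groups. Gene positions are GENCODE's for GRCh37, matched by symbol for 77 of 77 members. The fits were tested on simulated data. The genes named were EN1, structural groups fixed by role, and the 5 at each end of level, log2 fold change and SD; some items this rule gives are not reported here. RPL6, RPL7, RPS25 and its followers, RPS3A, RPL22L1 and RPL39L were named after their values were seen, as were the groups of libraries that stood apart.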

Additional observations from a re-analysis of the deposited data

Results flagged for a closer look

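Among 74 groups of 4 values examined, 6 held a library whose gap to its neighbour passed Dixon's critical value for groups of that size, where chance gives about 3.7. Under shScr, library 3 was high for RPLP1 (1590 CPM, against 1165 or less in the other 3), RPS19 (16.4 CPM) and RPS28 (244 CPM). Under shScr, library 4 was low for RPS3 (1919 CPM, against 2759 or more in the other 3), RPS6 (1017 CPM) and RPL29 (978 CPM). The flagged libraries shScr_3 and shScr_4 are among the 4 that formed the pairs standing apart over all genes, and the part of that in these values was not tested.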

How the results depend on the processing

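Over 20 alternatives to the pooled comparison (other scalings, DESeq2, limma-voom, other filters, the replicate block, libraries left out), 0 members were called in each of the 20. The median log2 fold change of members stayed between -0.04 (no filter) and -0.09 (without both pairs of libraries) apart from leaving out single libraries, where it ran from -0.13 (without shEn1_1.1) to 0.02 (without shEn1_2.1). Genes called numbered 2 with DESeq2, 1 without shScr_4 and shEn1_2.1, and 1 without both pairs, and from 0 to 1 on leaving out single libraries. For shEn1_1 against shScr they numbered 3 with DESeq2 and 1 when the fit held the compared libraries alone. Without both pairs, an alternative chosen after seeing the data for this quantity, the span of member medians was 0.22 in place of 0.46. The causes were not tested.

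With the replicate number as a block, which could be fitted to the 6 libraries numbered 1 or 2, 1 gene and 0 members were called and the members' median was -0.06. Same-numbered libraries correlated between -0.33 and 0.44 in their deviations, so the numbers were not treated as pairing the libraries. Under the block the sign turned for RPL18 (-0.058), RPL23 (-0.10), RPS29 (0.12) and RPS19 (0.021). Without shScr_3 and shEn1_1.1 it turned for RPL23 (-0.12) and RPS29 (0.051), and without both pairs for RPL23 (-0.18) and RPS29 (0.27).

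On leaving out single libraries, log2 fold changes ran from -0.14 to 0.29 for RPS26, -0.10 to 0.21 for RPL18, -0.068 to 0.15 for RPL28, -0.14 to 0.10 for RPL23, -0.45 to 0.090 for RPS29 and -0.24 to 0.041 for RPS19. RPS18 (-0.59 to -0.08), RPL22 (-0.24 to -0.07), RPL35A (-0.22 to -0.02) and EN1 (0.06 to 0.57) kept their sign. Depth limits RPS18, at 6 to 21 reads, while every other member had at least 281 reads in each library.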
